A study of Mus musculus with 6 samples.

Results

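Plasmacytoid dendritic cells are dendritic cells of blood, lymphoid tissue and inflamed organs that sense viral and self nucleic acids through endosomal Toll-like receptors and are known for secreting large amounts of type I interferon. Their identity depends on the E protein TCF4, which acts with SPI-B and RUNX2 and is opposed by the inhibitor ID2. In the mouse they are recognised at the surface by Siglec-H, CCR9 and BST2, the last of which many other cells also display once they have been exposed to interferon. The genes described here are 7 genes used as markers of these cells, Siglech, Ccr9, Bst2, Tcf4, Spib, Runx2 and Pacsin1, and were taken by name and matched by Ensembl identifier among the 35275 gene rows of the count tables. All 7 had a row and passed the filter on low counts.

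The RNA came from whole lungs of Balb/c mice into which 250000 cells of 4T1, a mammary carcinoma line of the same strain that colonises the lung, had been injected intravenously 7 days earlier. The KO group (3 libraries) received 4T1.PD-L1 KO cells and the WT group (3 libraries) received 4T1.WT cells. The labels name no edited allele in the host mice, all lungs bore 4T1 tumour cells and were rinsed with 20 mL of PBS, and no age and no lung without tumour cells is among the samples used here. The labels do not say whether the KO line is 1 clone, so loss of PD-L1, any other difference between the injected lines and a difference in tumour load cannot be told apart. Type I interferon and the engagement of myeloid PD-1 by PD-L1 of the tumour are named in the series title, and the comparison asks how the lung differs when the tumour cells lack PD-L1.

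Libraries held 14711459 to 16932114 counts, and levels are given as CPM, counts scaled to a common library size after TMM adjustment. On raw library totals, without the TMM adjustment, a count of 0 allows up to 0.177 to 0.204 CPM, depending on the library, for counting error only. Cd274, the gene of PD-L1, was at 97.4, 197.4 and 300.5 CPM in the KO lungs and at 62.6, 53.6 and 74.3 CPM in the WT lungs. Every KO library lay above every WT library, the opposite direction to a loss of the gene, and the log2 difference of 1.65 ± 0.42 (SE) did not pass (edgeR adjusted p = 0.161). Host cells keep this gene, so its level in whole lung does not check which line was injected, and the groups rest on the labels alone. Of 15191 genes tested, 170 were higher and 51 lower in KO lungs at an adjusted p under 0.05 by edgeR's quasi-likelihood test.

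Of the 7 genes, Bst2 and Ccr9 rose in lungs with KO tumour cells and 5 did not pass the test. By edgeR, DESeq2 and limma-voom 0 of the 7 fell, and at an unadjusted p under 0.05 there were 6 higher and 0 lower, where 8.29% of all genes tested were higher and 6.33% lower. The background rate of genes called higher was 1.12% and that of genes called lower 0.336% of all genes tested. In 6 of the 7, every KO library lay above every WT library, a separation that 10.3% of all genes tested showed, and for 0 of the 7 did every KO library lie below every WT library, as it did for 9.4% of all genes tested. Tcf4 was the gene whose groups overlapped. The median log2 fold change of the 7 was 1.05, against 0.01 over all genes tested. In RNA of a whole organ, more cells of a type and more RNA of a gene per cell cannot be told apart.

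**Figure D1:**
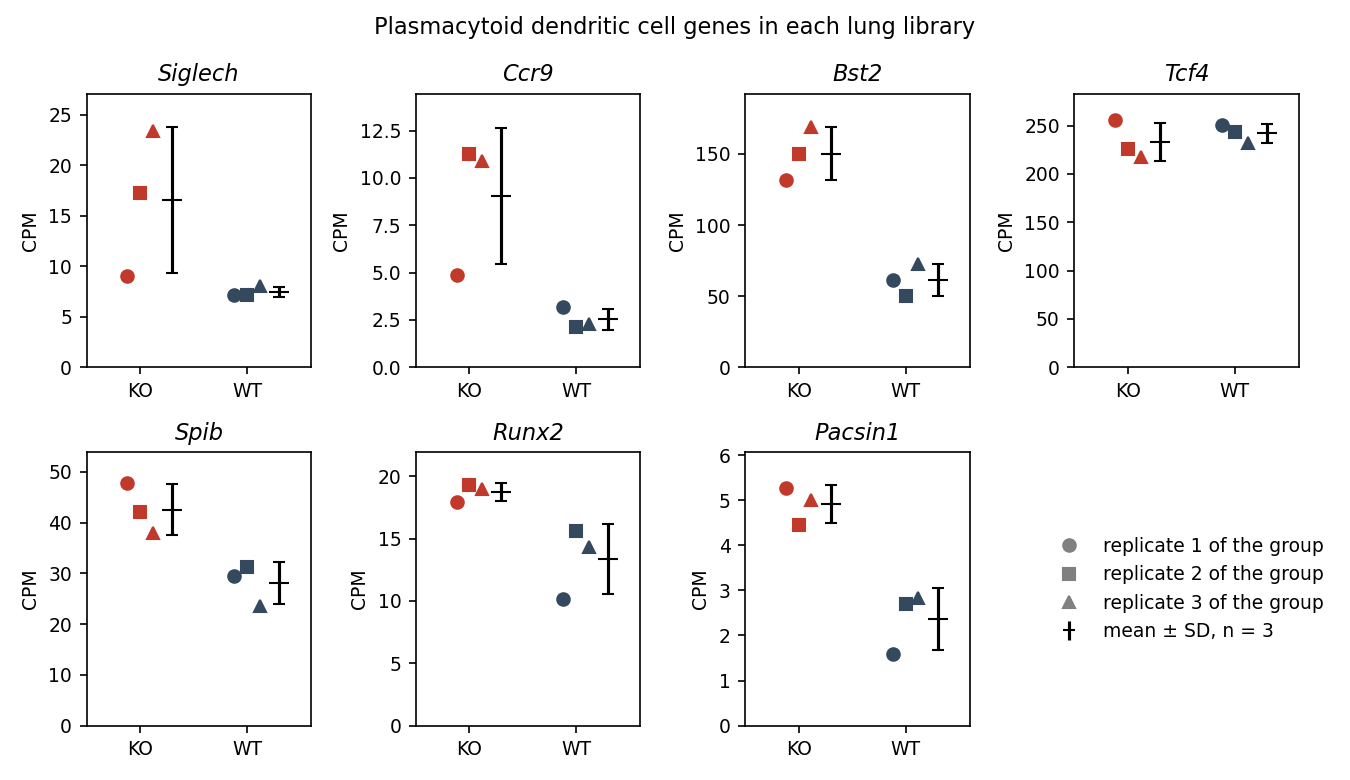
CPM (vertical axes, linear, each starting at 0) of the 7 genes in the 3 KO (red) and 3 WT (dark) lung libraries, with the mean and SD beside the points. The KO points lie above the WT points in every panel other than Tcf4, and KO replicate 1 is the lowest KO library for Siglech, Ccr9, Bst2 and Runx2 and the highest for Tcf4, Spib and Pacsin1.

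The sequences just upstream of Bst2 and Siglech are shown because Bst2 is known as an interferon-induced gene in many cell types and Siglech as a marker of plasmacytoid dendritic cells. They were taken from RefSeq (GRCm38.p6), as the 250 bases before the annotated start, and 6 of the 7 genes matched, all except Tcf4. For Ccr9 and Pacsin1 the RefSeq start (123767211 and 27685239) lies well inside the gene bounds given below. Their windows are therefore not the sequence before those bounds. For Bst2 (chr8:71537473-71537722, minus strand) capitals mark the interferon-stimulated response element core, searched on both strands as GAAA followed by another GAAA after any pair of bases, and for Siglech (chr7:55767934-55768183, plus strand) they mark the E box, CANNTG, the core sequence bound by E proteins such as TCF4.
Bst2: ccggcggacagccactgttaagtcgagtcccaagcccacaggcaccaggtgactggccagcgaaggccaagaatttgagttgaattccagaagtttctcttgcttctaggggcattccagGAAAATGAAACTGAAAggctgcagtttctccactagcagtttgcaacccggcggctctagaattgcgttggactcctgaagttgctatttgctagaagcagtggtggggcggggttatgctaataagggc
Siglech: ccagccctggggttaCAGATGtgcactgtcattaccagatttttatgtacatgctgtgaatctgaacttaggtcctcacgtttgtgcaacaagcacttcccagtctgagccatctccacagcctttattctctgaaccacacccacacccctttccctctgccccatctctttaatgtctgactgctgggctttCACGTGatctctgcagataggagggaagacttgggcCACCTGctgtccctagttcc

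The Bst2 window held 2 overlapping matches to the interferon-stimulated core, GAAAATGAAA and GAAACTGAAA, which begin 130 and 124 bases before the start. The windows of Siglech, Ccr9, Spib, Runx2 and Pacsin1 held 0 matches to that core, and 2.98% of all 32851 promoter windows in the table held at least 1. Of 17 interferon-stimulated genes with a sequence in the table, 7 held it in at least 1 of their windows, a count per gene and not per window. E boxes were present in 3 copies at Siglech, 2 at Ccr9, 2 at Spib, 1 at Bst2, 1 at Runx2 and 0 at Pacsin1, and 66.2% of all windows held at least 1. The RUNX core (TGTGGT or ACCACA) occurred at Siglech, Runx2 and Pacsin1, where 14.0% of all windows held it, and overlapped the E box at Runx2. The PU box (GAGGAA or TTCCTC), the core bound by SPI-B and PU.1, occurred in none of the 6 windows and in 23.3% of all windows. Such matches describe letters in a window and not bound sites.

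Siglech (ENSMUSG00000051504, chromosome 7, 55768178 to 55778925 in GRCm38) encodes Siglec-H, an endocytic receptor of the Siglec family on mouse plasmacytoid dendritic cells that signals through DAP12. It was at 9.01, 17.2 and 23.4 CPM in KO replicates 1, 2 and 3, against 7.15, 7.16 and 8.01 CPM in WT replicates 1, 2 and 3. The WT libraries lay close together, whereas KO replicate 1 was just above the highest WT library and the other KO libraries were well above it. The log2 difference was 1.15 ± 0.30 (SE, 95% interval 0.51 to 1.79) and did not pass (edgeR adjusted p = 0.0784). Without KO replicate 1 the log2 difference was 1.45 and passed (adjusted p = 0.00339), and without any other single library it did not pass, at adjusted p of 0.108 to 0.326.

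Ccr9 (ENSMUSG00000029530, chromosome 9, 123678439 to 123784330) encodes the receptor for the chemokine CCL25 and is carried by plasmacytoid dendritic cells and by gut-homing T cells. It was at 4.89, 11.3 and 10.9 CPM in the KO libraries, from 76, 172 and 179 counts, against 3.16, 2.11 and 2.30 CPM in the WT libraries, from 46, 36 and 35 counts. KO replicate 1 again lay nearest to the WT libraries. Ccr9 rose 3.58-fold, the largest change of the 7, with a log2 fold change of 1.84 ± 0.37 (SE, 95% interval 1.04 to 2.64, edgeR adjusted p = 0.0308). The call held without KO replicate 1 (edgeR adjusted p = 0.00229) and was lost without KO replicate 2 or 3 or WT replicate 1, 2 or 3, at adjusted p of 0.173, 0.135, 0.0955, 0.129 and 0.0606. Its annotated exons share 1932 bases with the opposite-strand AC165425.1, which had 0 counts in every library, and shorter stretches with Slc6a20a and Gm17200. Its ligand gene Ccl25 was at 0.661 ± 0.383 CPM in KO and 1.15 ± 0.882 CPM in WT lungs (SD, n = 3 each), with overlapping groups and an edgeR adjusted p of 0.748.

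Bst2 (ENSMUSG00000046718, chromosome 8, 71534255 to 71537456) encodes tetherin, also called PDCA-1, which holds budding virions at the cell surface. It was at 131.6, 149.9 and 169.1 CPM in the KO libraries, against 61.7, 50.3 and 72.5 CPM in the WT libraries. The lowest KO library was well above the highest WT library, and KO replicate 1 stood apart from the other KO libraries less than it did for Siglech or Ccr9. Bst2 rose 2.44-fold, with a log2 fold change of 1.29 ± 0.14 (SE, 95% interval 0.99 to 1.59, edgeR adjusted p = 0.00157), and had the 2nd smallest p of the 15191 genes. With each library left out in turn it remained called, at adjusted p between 4.45e-05 and 0.0187.

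**Figure D2:**
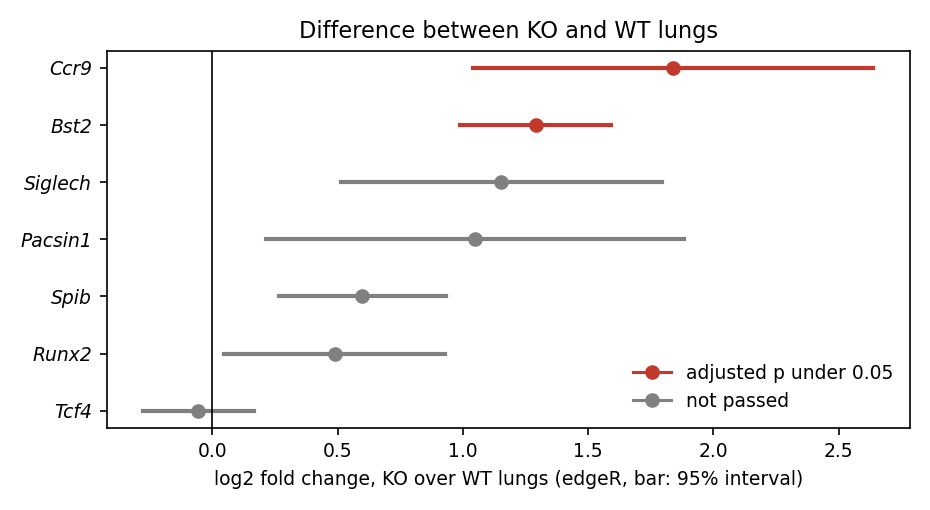
Log2 fold change of KO over WT lungs (horizontal axis, edgeR) with 95% intervals for the 7 genes, red where the adjusted p over all genes was under 0.05. Ccr9 (1.84) and Bst2 (1.29) passed, the interval of Bst2 is far narrower than that of Ccr9, and the interval of Tcf4 includes 0.

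None of the 3 transcription factor genes passed the test. Tcf4 (ENSMUSG00000053477, chromosome 18), which encodes the E protein that specifies these cells and is also expressed in many other lung cells, was at 255.5, 225.9 and 217.8 CPM in KO and 250.8, 243.9 and 231.8 CPM in WT lungs. The groups overlapped and the log2 difference was −0.06 ± 0.10, with a 95% interval of −0.28 to 0.17, which corresponds to 0.826-fold to 1.12-fold (edgeR adjusted p = 0.861). Spib (ENSMUSG00000008193, chromosome 7, 44525993 to 44532071), an Ets factor of plasmacytoid dendritic cells, B cells and intestinal M cells, was at 47.8, 42.1 and 37.9 CPM in KO and 29.4, 31.4 and 23.6 CPM in WT lungs. Here KO replicate 1 was the highest library. The log2 difference of Spib was 0.60 ± 0.16 (95% interval 0.26 to 0.93) and did not pass (edgeR adjusted p = 0.0789).

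Runx2 (ENSMUSG00000039153, chromosome 17, 44495987 to 44814797), known as the master factor of bone formation and needed in mice for plasmacytoid dendritic cells to leave the bone marrow, was at 18.0, 19.3 and 19.0 CPM in KO and 10.2, 15.6 and 14.3 CPM in WT lungs. The KO libraries were nearly equal, and WT replicate 1 was the lowest. Its log2 difference was 0.49 ± 0.21 (95% interval 0.05 to 0.93, edgeR adjusted p = 0.285). Runx2 shares 519 exonic bases with the antisense gene Runx2os1, which had 10 counts in WT replicate 2 and 0 in every other library. Pacsin1 (ENSMUSG00000040276, chromosome 17, 27655509 to 27711482), an adaptor of endocytosis best known from neurons and used in mouse plasmacytoid dendritic cells for the interferon response to TLR9 ligands, was at 5.28, 4.46 and 4.9995 CPM in KO and 1.58, 2.70 and 2.82 CPM in WT lungs. It rested on 68 to 82 counts in KO and 23 to 46 counts in WT libraries, and its log2 difference of 1.05 ± 0.39 (95% interval 0.21 to 1.88) did not pass (edgeR adjusted p = 0.22).

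Per kilobase of annotated exons the genes spanned a wide range of levels. In KO lungs Bst2 was at 166.3 CPM per kilobase, Spib at 14.9, Tcf4 at 8.51, Siglech at 4.89, Runx2 at 2.12, Ccr9 at 0.880 and Pacsin1 at 0.753. In WT lungs Bst2 was at 68.1 CPM per kilobase, Spib at 9.80, Tcf4 at 8.84, Siglech at 2.20, Runx2 at 1.51, Pacsin1 at 0.363 and Ccr9 at 0.246. Neighbours in this order whose libraries overlapped were Ccr9 and Pacsin1 in both groups, and Spib and Tcf4 in WT lungs. The annotated exons of Tcf4 sum to 27382 bases and those of Ccr9 to 10260 bases over all isoforms, which lowers their values if shorter isoforms predominate.

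The order of the KO libraries differed among the 7 genes. Relative to the mean of WT lungs, KO replicate 1 was at 1.21 times for Siglech and 1.94 times for Ccr9, while KO replicates 2 and 3 were at 2.32 and 3.15 times for Siglech and at 4.46 and 4.32 times for Ccr9. The order was turned round for Spib, at 1.70, 1.496 and 1.35 times in KO replicates 1, 2 and 3. The root-mean-square difference between centred log2 CPM profiles over the 6 libraries, a measure of likeness in log2 units that is smaller for more alike profiles, was smallest for Spib and Runx2 (0.27) and largest for Ccr9 and Tcf4 (1.03). It was 0.35 between Siglech and Bst2 and 0.43 between Siglech and Ccr9.

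**Figure D3:**
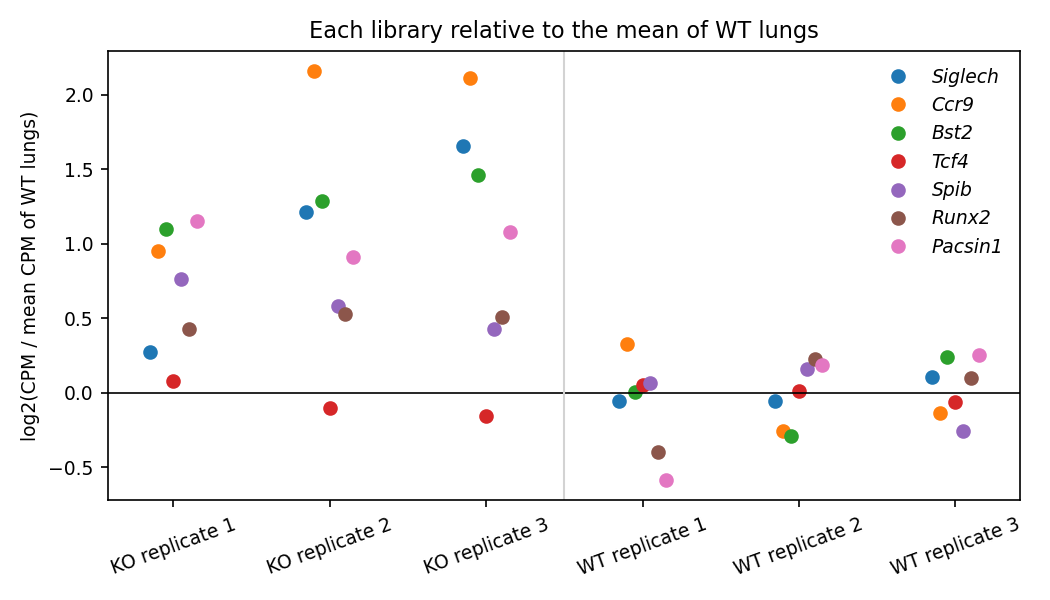
Log2 of CPM relative to the mean of WT lungs (vertical axis) for the 7 genes in each library (horizontal axis, KO libraries on the left). Siglech and Ccr9 are lower in KO replicate 1 (1.21 and 1.94 times the WT mean) than in the other KO libraries, Spib is highest there (1.70 times), and Tcf4 stays near 0 in all libraries.

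Among 13183 candidate genes, the 5 whose profiles were most like that of Siglech were Msr1, H2-Ab1, Nlrc5, Lgals1 and Asf1b, at root-mean-square differences of 0.08 to 0.13. They encode a macrophage scavenger receptor, an MHC class II chain, the activator of MHC class I genes, galectin-1 and a histone chaperone. The 5 most like Bst2 were Rtp4, Ccl2, H2-T23, Batf2 and Xaf1, at 0.10 to 0.17. Those most like Ccr9 were Tns4, Igtp, Ifit1, Slfn9 and Gbp3, at 0.18 to 0.26. Of the 25 interferon-stimulated genes described below, Rtp4 and Xaf1 stood in the set of Bst2 and Ifit1 in that of Ccr9. The other genes of the 3 sets, Nlrc5 and H2-Ab1 of the Siglech set among them, are not in that list. It does not cover all interferon-induced genes. Rtp4 was at 53.2 ± 4.39 CPM in KO and 22.7 ± 5.07 CPM in WT lungs (SD, n = 3 each). None of the 3 sets held another of the 7 genes.

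Because Bst2 is also induced by interferon, it was set against each other gene within a library, where the scaling of libraries cancels. The log2 ratio of Bst2 to Tcf4 was −0.96, −0.59 and −0.37 in the KO libraries and −2.02, −2.28 and −1.68 in the WT libraries, and the groups did not overlap. The log2 ratio of Bst2 to Runx2 was 2.87, 2.95 and 3.15 in KO and 2.60, 1.68 and 2.34 in WT libraries, again without overlap. These ratios were higher in KO lungs by 1.36 and 0.79 on the log2 scale, each with p = 0.1 in an exact two-sided permutation test, the smallest that 3 libraries against 3 allow. The ratio of Bst2 to Spib differed by 0.69 (exact permutation p = 0.2) with overlapping groups. The ratios to Siglech (0.25, exact permutation p = 0.6), Ccr9 (−0.45, p = 0.3) and Pacsin1 (0.21, p = 0.7) overlapped between groups, and the sign of those to Siglech and Pacsin1 turned when KO replicate 1 and WT replicate 2 were left out, to −0.042 and −0.0403. With 6 ratios compared and 0.1 as the smallest possible p, none could pass a threshold of 0.05.

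**Figure D4:**
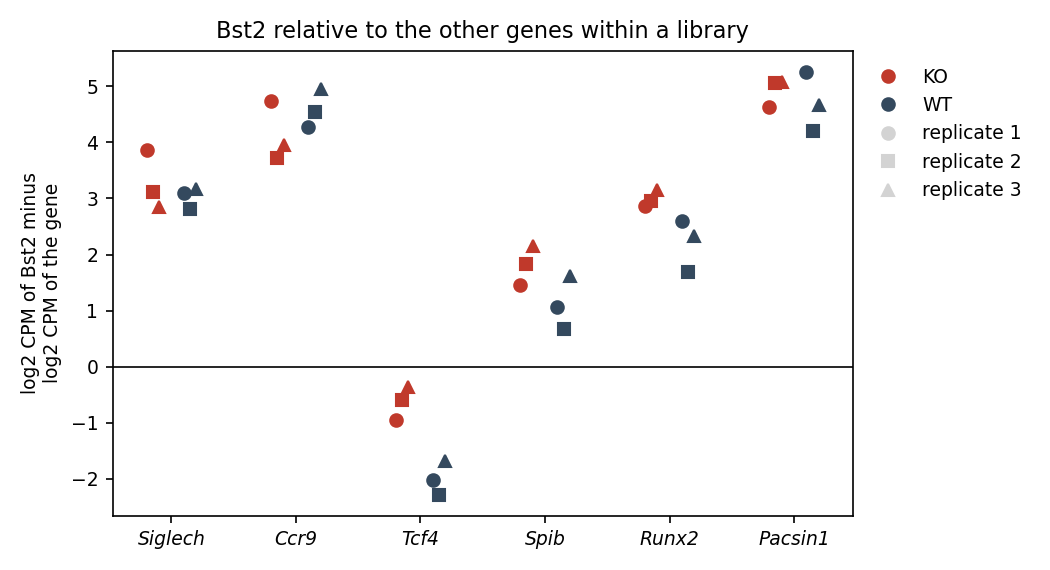
Log2 CPM of Bst2 minus log2 CPM of each other gene in the same library (vertical axis), for KO (red) and WT (dark) libraries. KO and WT points are separate for Tcf4 (differing by 1.36) and Runx2 (0.79) and overlap for Siglech, Ccr9, Spib and Pacsin1.

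Interferon-stimulated genes were higher in the same lungs as Bst2. Of 25 such genes, 20 rose by edgeR (1.12% of all genes tested), and 0 fell by edgeR, DESeq2 or limma-voom. All 25 were higher at an unadjusted p under 0.05 (8.29% of all genes tested). In all 25 every KO library lay above every WT library (10.3% of all genes tested), with a median log2 fold change of 1.14. The list was chosen with earlier results of these data known, so these counts describe the list only. Ifi44 rose to 63.0 ± 21.9 CPM in KO lungs, against 21.2 ± 1.10 CPM in WT lungs, and Stat2, the type I interferon signal transducer, was at 144.9 ± 22.2 CPM in KO and 74.8 ± 6.94 CPM in WT lungs (SD, n = 3 each, edgeR adjusted p = 0.00482 for both). Isg15, Ifih1, Ddx58, Trim30a and Parp14 did not pass. The summed level of the 25 genes was 1798, 2276 and 2804 CPM in KO replicates 1, 2 and 3 and 1097 to 1299 CPM in WT lungs. KO replicate 1 was thus the lowest KO library for this sum. It was also the lowest for Siglech, Ccr9, Bst2 and, by a small margin, Runx2, but the highest for Tcf4, Spib and Pacsin1. The part of an interferon response in the values of these genes was not tested. The count depended on single libraries: 23, 5 and 7 of the 25 rose without KO replicates 1, 2 and 3, and 4, 3 and 12 without WT replicates 1, 2 and 3. The number over all genes tested (15530 to 15728 in these fits) moved too. It was 404, 23 and 36 without KO replicates 1, 2 and 3, and 28, 22 and 188 without WT replicates 1, 2 and 3.

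Further genes associated with plasmacytoid dendritic cells did not pass. Of 20 such genes 17 could be tested and 0 were called by edgeR, while 4 were higher at an unadjusted p under 0.05 (8.29% of all genes tested). DESeq2 called 3 higher (367 of all 15191 genes tested) and limma-voom 0 (154 of all genes tested). Of the 17, 13 had positive log2 differences, against 7740 of all 15191 genes tested. In 4 of the 17 every KO library lay above every WT library, against 10.3% of all genes tested. In 1, Ptprs, every KO library lay below every WT library, against 9.4% of all genes tested. Their median log2 difference was 0.43. Klk1, a kallikrein gene enriched in mouse plasmacytoid dendritic cells, was at 3.28, 5.11 and 5.36 CPM in KO and 0.962, 1.94 and 1.71 CPM in WT lungs (log2 difference 1.57 ± 0.45, edgeR adjusted p = 0.11). Plac8 was at 64.9, 92.3 and 123.0 CPM in KO and 58.7, 54.9 and 50.1 CPM in WT lungs (0.78 ± 0.18, adjusted p = 0.0561), and Gpr171 had a log2 difference of 0.77 ± 0.21 (adjusted p = 0.0916). Without KO replicate 1, Plac8, Gpr171 and Slamf9 passed, at adjusted p of 0.000882, 0.0303 and 0.0299. Cox6a2, Smim5, Lifr and Ptprs had negative log2 differences, and Cd209d, Cd300c and Dntt were too low to test.

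Among 16 genes of the E protein and plasmacytoid dendritic cell transcription factor network, Irf8 and Spi1 rose (1.12% of all genes tested). At an unadjusted p under 0.05, 7 of the 16 were higher and 0 lower (8.29% and 6.33% of all genes tested). In 7 every KO library lay above every WT library, and in 1 below (10.3% and 9.4% of all genes tested). Irf8, a factor needed for dendritic cell and monocyte development, was at 182.2 ± 27.8 CPM in KO and 112.3 ± 21.1 CPM in WT lungs (edgeR adjusted p = 0.0347). Spi1, which encodes PU.1, was at 87.3 ± 6.31 CPM in KO and 55.3 ± 12.04 CPM in WT lungs (SD, n = 3 each, edgeR adjusted p = 0.0433). Both calls held without KO replicate 1 or WT replicate 3 and were lost without any other library, at adjusted p up to 0.173 for Irf8 and 0.208 for Spi1. The other E protein genes Tcf3 and Tcf12 had log2 differences of −0.05 ± 0.11 and −0.09 ± 0.10. The inhibitor gene Id2 had 0.19 ± 0.15 and Id1, another inhibitor of E proteins, had 0.59 ± 0.15 (edgeR adjusted p = 0.0693), and Bcl11a, a factor of plasmacytoid dendritic cell and B cell development, had 1.08 ± 0.45 (adjusted p = 0.28).

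Of 16 genes of nucleic acid sensing and interferon production, 10 could be tested, and Irf7, Unc93b1 and Pld4 rose (1.12% of all genes tested). At an unadjusted p under 0.05, 5 of the 10 were higher and 0 lower (8.29% and 6.33% of all genes tested). In 4 every KO library lay above every WT library, and in 0 below (10.3% and 9.4% of all genes tested). Irf7, which drives interferon alpha genes and is itself interferon-induced, was at 101.1, 127.4 and 194.5 CPM in KO and 48.1, 62.9 and 46.7 CPM in WT lungs (log2 fold change 1.42 ± 0.22, edgeR adjusted p = 0.0151). Its call was lost without KO replicate 2 (adjusted p = 0.0526) or WT replicate 1 (0.124). Pld4, an endosomal nuclease of plasmacytoid dendritic and other myeloid cells, was at 64.1, 100.5 and 94.1 CPM in KO and 46.7, 45.0 and 50.9 CPM in WT lungs (0.86 ± 0.16, edgeR adjusted p = 0.0168). The calls of Pld4 and of Unc93b1, the chaperone of endosomal Toll-like receptors (0.58 ± 0.11, adjusted p = 0.0266), held without KO replicate 1 or WT replicate 3 and were lost without any other library. Tlr9, the receptor for DNA, was at 7.59, 15.01 and 18.7 CPM in KO and 7.01, 4.99 and 7.94 CPM in WT lungs and did not pass (1.05 ± 0.32, edgeR adjusted p = 0.127), nor did Tlr7, the receptor for RNA (0.65 ± 0.21, adjusted p = 0.162). KO replicate 1 lay among the WT libraries for both. Both passed without KO replicate 1, Tlr9 at an adjusted p of 0.0135 and Tlr7 at 0.0465. Of the interferon genes, Ifna5 was detected in KO replicate 3 alone (8 counts), and Ifnb1, Ifna1, Ifna2, Ifna4 and Ifna6 had 0 counts in every library.

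Of 10 ligand and receptor genes of plasmacytoid dendritic cell migration, Cxcl10, Cxcl11 and Ccr2 rose (1.12% of all genes tested). At an unadjusted p under 0.05, 6 of the 10 were higher and 0 lower (8.29% and 6.33% of all genes tested). In 6 every KO library lay above every WT library, and in 0 below (10.3% and 9.4% of all genes tested). Cxcl10 was at 20.2, 49.3 and 68.2 CPM in KO and 8.46, 5.28 and 8.93 CPM in WT lungs (log2 fold change 2.61 ± 0.44, edgeR adjusted p = 0.0416). Cxcr3, the receptor for the ligands CXCL9, CXCL10 and CXCL11, was at 4.10 ± 1.14 CPM in KO and 1.82 ± 0.453 CPM in WT lungs (SD, n = 3 each), a log2 difference of 1.17 ± 0.45 (edgeR adjusted p = 0.235). Cxcr4 and Cxcl12 had log2 differences of −0.03 ± 0.13 and 0.14 ± 0.12. With KO replicates 1, 2 and 3 left out in turn, 5, 0 and 1 of the 10 rose, and with WT replicates 1, 2 and 3 left out, 0, 0 and 2 rose. Over all genes tested, 404, 23 and 36 and then 28, 22 and 188 rose in the same fits.

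Several of the 7 genes are shared with other cells, whose markers were read beside them. Of 10 B cell genes, a cell type that expresses Spib and Tcf4, 0 were called by edgeR and 6 were higher at an unadjusted p under 0.05 (8.29% of all genes tested). DESeq2 called 1 higher (367 of all 15191 genes tested) and limma-voom 0 (154 of all genes tested). Positive log2 differences, found in 7740 of all 15191 genes tested, were seen in all 10 (median 0.57). Their summed level was 276.9, 208.4 and 253.7 CPM in KO replicates 1, 2 and 3 and 207.5, 124.6 and 152.0 CPM in WT replicates 1, 2 and 3. KO replicate 1 was highest for this sum and for Spib. The lowest KO library was replicate 2 for the sum and replicate 3 for Spib. WT replicate 2 was the lowest WT library for the sum and the highest for Spib. Ms4a1, which encodes CD20, had a log2 difference of 0.97 ± 0.23 (edgeR adjusted p = 0.0572) and passed without KO replicate 2 (0.0358). Of 8 plasma cell genes tested, Igkc and Ighm rose (1.12% of all genes tested), each also with any single library left out. The part of B lineage cells in the values of Spib, Tcf4 and Bst2 was not tested.

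Of 12 T cell genes, a lineage in which Ccr9 is also found, 0 were called by edgeR. At an unadjusted p under 0.05, 5 were higher and 1 lower (8.29% and 6.33% of all genes tested). DESeq2 called 3 higher (367 of all 15191 genes tested) and limma-voom 0 (154 of all genes tested). The median log2 difference of the 12 was 0.46, with summed levels of 275.2 to 371.1 CPM in KO and 217.0 to 375.4 CPM in WT lungs. Without KO replicate 1, Cd3g and Thy1 passed. Of 12 conventional dendritic cell genes 0 were called by edgeR and 2 were higher at an unadjusted p under 0.05 (8.29% of all genes tested). DESeq2 called 1 higher (367 of all 15191 genes tested) and limma-voom 0 (154 of all genes tested). The median log2 difference of these 12 genes was 0.25, and 9 were positive, against 7740 of all 15191 genes tested. In 3 every KO library lay above every WT library, and in 0 below (10.3% and 9.4% of all genes tested). The smallest p was that of Cd8a, which T cells share, with a log2 difference of 0.95 ± 0.25 (edgeR adjusted p = 0.0881). Among 10 monocyte and macrophage genes, Ly6c2, Ccr2 and Fcgr1 rose (1.12% of all genes tested). Their number was 4, 1 and 1 without KO replicates 1, 2 and 3. It was 1, 1 and 4 without WT replicates 1, 2 and 3. Over all genes tested, 404, 23 and 36 and then 28, 22 and 188 rose in the same fits. All 10 had positive log2 differences, and 7 were higher and 0 lower at an unadjusted p under 0.05 (8.29% and 6.33% of all genes tested). In 7 of the 10 every KO library lay above every WT library (10.3% of all genes tested). The summed level of the monocyte and macrophage genes was 451.8 to 574.8 CPM in KO and 337.8 to 408.3 CPM in WT lungs. The part of T cells and of monocytes in the values of the 7 genes was not tested.

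Markers of the cells for which Pacsin1 and Runx2 are best known were too low to test or were not called higher by edgeR. Of 8 neuron genes, 5 could be tested and 0 were called by edgeR, DESeq2 or limma-voom or at an unadjusted p under 0.05. Snap25, Syt1 and Nefl were too low to test, and the summed level, most of it from Stmn2, was 73.0 to 92.6 CPM in KO and 79.3 to 99.3 CPM in WT lungs. Of the bone-forming genes, Ibsp had 0 counts in every library, Sp7 and Bglap were at 0 in all WT libraries and too low to test, and Alpl had a log2 difference of 0.09 ± 0.19. Among the 7 mesenchyme and bone-related genes tested, Pdgfra fell by 0.46 ± 0.11 on the log2 scale (edgeR adjusted p = 0.0485), where 0.336% of all genes tested fell. The call of Pdgfra held without KO replicate 1 and was lost without any other library. The part of neurons, bone-forming cells and mesenchyme in the values of Pacsin1 and Runx2 was not tested.

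**Figure D5:**
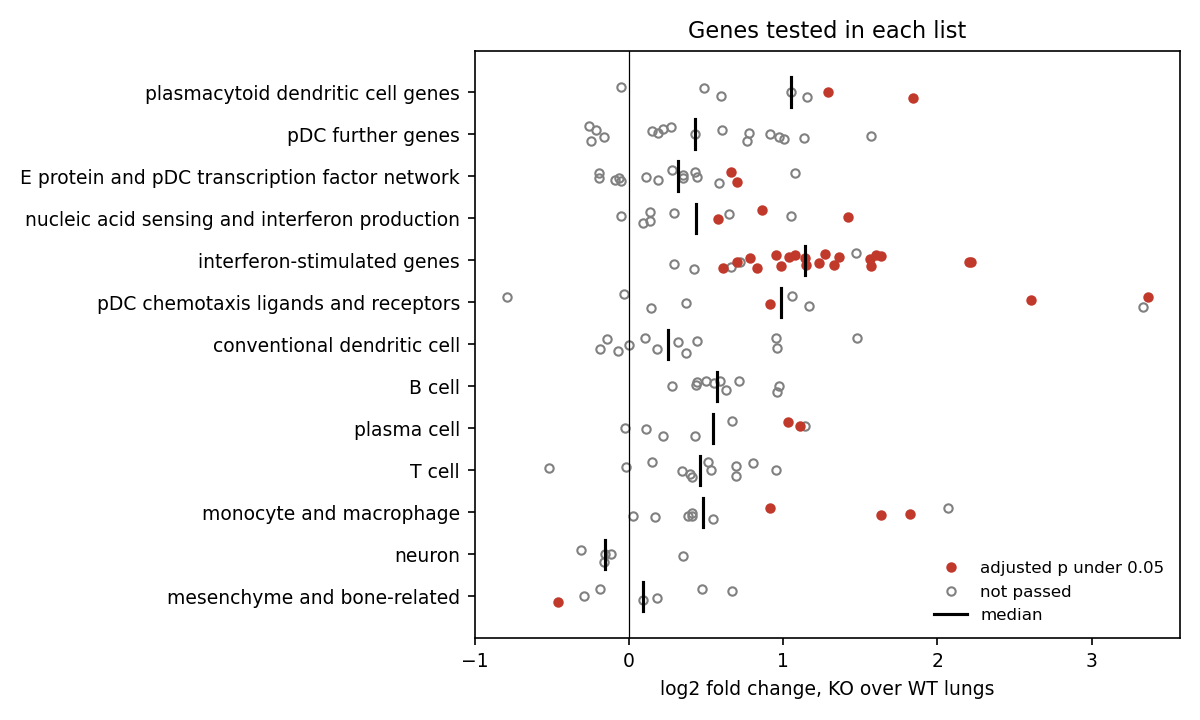
Log2 fold change of KO over WT lungs (horizontal axis) for each tested gene of the lists (rows), red where the adjusted p over all genes was under 0.05, with the median as a bar and a random vertical offset for visibility. All 25 interferon-stimulated genes lie above 0 (median 1.14), whereas further plasmacytoid dendritic cell genes (median 0.43) and conventional dendritic cell genes (median 0.25) lie on both sides. All 10 B cell genes (median 0.57) and all 10 monocyte and macrophage genes (median 0.48) also lie above 0.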

How the data were processed

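Each deposited table gave the authors' read counts, as whole numbers for every Ensembl gene of 1 library. Per the series' design text, paired-end reads were aligned to mm10 with STAR 2.5 and counted with HTSeq 0.6.1. No source used here gives the annotation release, strand setting or counting mode, so reads in exons shared between genes, on either strand, may have been assigned to either gene or to none. GENCODE M21 supplied symbols, positions and exonic lengths by identifier (34490 of 35275 rows had a symbol, and 0 rows named no gene).

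KO was compared with WT by edgeR's quasi-likelihood test (edgeR 4.0.16, R 4.3.3), with TMM scaling, a minimum count of 10 in filterByExpr, robust=TRUE and group as the only term. Tests were two-sided, with Benjamini-Hochberg adjustment over 15191 genes and a threshold of 0.05. SE was derived from the log2 fold change and F, and 95% intervals from the t quantile. Ratios within a library used log2 CPM with a prior count of 0.5. The procedure was tested on simulated counts.

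The 7 genes and all lists were chosen with earlier results of these data known. The rule for named genes took the 7 genes, Cd274, Ccl25, Irf7, Irf8, Tlr7, Tlr9, up to 3 genes of smallest p in each list and the 5 nearest profiles of Siglech and Bst2. Other genes were named after their values were seen.

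Within groups, libraries differed well beyond sampling noise (chi-square over degrees of freedom of 14.7 to 27.0), and none was merged. Whether a library is 1 animal is not stated, so the p-values cover the spread between these samples, which may be technical. Alternatives were other scalings, filters and thresholds, DESeq2 1.42.0, limma-voom (limma 3.58.1), robust=FALSE, a replicate block and leaving out each library.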

Additional observations from a re-analysis of the deposited data

How the results depend on the processing

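Bst2 was called higher under all alternatives. Ccr9 was lost with limma-voom (adjusted p = 0.0834), at an adjusted p threshold of 0.01 and without any 1 library other than KO replicate 1. Genes higher, genes lower and members called numbered 578, 225 and 4 with no filter on low counts, 367, 231 and 4 with DESeq2, 315, 160 and 4 at a threshold of 0.1, and 23, 2 and 1 at a threshold of 0.01, and limma-voom called 1 member. The 4 members were Siglech, Ccr9, Bst2 and Spib. With the replicate number as a block there were 309, 96 and 4. The labels name no pairing, and over all genes tested the deviations of same-numbered libraries were not correlated (0.007, −0.043 and −0.0002). Correlations over all genes cannot exclude a shared batch that affects only some genes. Leaving out 1 library gave 22 to 404 genes higher, 2 to 174 lower and 1 to 3 members called. The log2 difference in the ratio of Bst2 to Siglech ranged between −0.042 and 0.46 and that to Pacsin1 between −0.0403 and 0.49. Scaling by RLE, upper quartile or library size, a CPM filter and robust=FALSE left the called members as they were. The cause of these changes was not tested. Depth limits Pacsin1 and Ccr9 most, with 23 to 46 counts in WT libraries.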
